A study of Schizosaccharomyces pombe with 3 samples.

Results

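Histone H3 acetylated at lysine 9 (H3K9ac) was followed along 4 cell cycle regulator genes of the fission yeast Schizosaccharomyces pombe: cdc10, mcm2, cdc18 and rum1. The members were all probes that lie inside these genes or within 500 bp of them, which gave 285 of the 43993 probes of the tiling array, each measured on all 3 arrays. The genes themselves are 4 of 886 protein-coding genes of chromosome II with 3 or more probes. Wild-type cells, cells with alp13 deleted and cells with the asf1-1 allele of asf1 were each hybridised to 1 array, and the labels give no other allele or marker. All strains were in logarithmic growth in YEA, a rich medium, at 30 °C, with no synchronisation named, and fixation was with paraformaldehyde (3%, 18 °C). The strain labels could not be checked on the arrays, because alp13 lies on chromosome I and asf1 on chromosome III, outside the positions placed here.

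H3K9ac marks active chromatin and is removed by histone deacetylases, and in fission yeast it is known to be high at promoters and lower over coding regions. Alp13 is a chromodomain subunit of a complex of the deacetylase Clr6 that is known to act on coding regions, and Asf1 is a histone chaperone that places histones on DNA. The genes described here act around the start of DNA replication. Cdc10 is a subunit of MBF, the transcription factor that switches on replication genes, and cdc18 is a well-known target of MBF. Cdc18 loads the replicative helicase onto origins, Mcm2 is a subunit of that helicase, and Rum1 inhibits the cyclin-dependent kinase Cdc2 before replication begins.

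The DNA upstream of each gene is shown because 3 of the 4 genes were lower there by 1.5-fold in the alp13 deletion. That is close to the share of all genes, 72.4%. The sequences run 5′ to 3′ in the direction of transcription, end at the base before the annotated start, and cover 300 bases or, for mcm2, the 175 bases up to the neighbouring gene mlo2. They and all gene coordinates are from the RefSeq assembly ASM294v3. Capitals mark the motif CGCG, the core of the site that MBF is known to bind.
cdc10 (chrII:2763801-2764100, minus strand): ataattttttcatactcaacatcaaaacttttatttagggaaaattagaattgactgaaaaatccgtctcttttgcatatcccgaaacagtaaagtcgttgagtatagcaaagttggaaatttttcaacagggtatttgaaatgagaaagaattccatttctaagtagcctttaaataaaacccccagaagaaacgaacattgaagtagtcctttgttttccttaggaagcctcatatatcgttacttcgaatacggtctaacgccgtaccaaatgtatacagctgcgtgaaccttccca
mcm2 (chrII:1194143-1194317, minus strand): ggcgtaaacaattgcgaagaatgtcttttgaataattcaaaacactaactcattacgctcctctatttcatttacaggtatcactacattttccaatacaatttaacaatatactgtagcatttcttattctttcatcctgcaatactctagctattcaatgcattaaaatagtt
cdc18 (chrII:2217985-2218284, minus strand): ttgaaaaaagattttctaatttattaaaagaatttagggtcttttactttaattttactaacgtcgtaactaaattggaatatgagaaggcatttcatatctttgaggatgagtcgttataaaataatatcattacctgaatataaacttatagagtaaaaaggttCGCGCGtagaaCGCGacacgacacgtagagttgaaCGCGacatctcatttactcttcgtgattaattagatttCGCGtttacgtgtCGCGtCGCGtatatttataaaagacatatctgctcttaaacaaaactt
rum1 (chrII:2799377-2799676, plus strand): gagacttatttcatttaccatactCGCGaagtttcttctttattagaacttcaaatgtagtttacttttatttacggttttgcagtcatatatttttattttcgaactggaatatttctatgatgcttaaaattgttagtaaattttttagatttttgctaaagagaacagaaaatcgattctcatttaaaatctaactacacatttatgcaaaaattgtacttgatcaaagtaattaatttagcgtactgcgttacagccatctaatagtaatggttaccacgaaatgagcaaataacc

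The full site ACGCGT, the MluI cell cycle box, was in none of the 4 upstream windows of 300 bases and in 2.90% of 5112 such windows of the genome (148 windows). Its core CGCG was in 17.1% of them (872 windows), and both motifs read the same on either strand. Upstream of cdc18 the core occurred 7 times, with first bases between 134 and 43 bases before the start and 1 overlapping pair. Of the 5112 windows, 3 held 7 or more. Upstream of rum1 it occurred once (1 match, 276 bases before the start), and there was no match (0) upstream of cdc10 and mcm2. A match describes the letters in the window and does not show a bound site.

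Each array value is the log2 ratio of Cy5 (H3K9ac immunoprecipitate) to Cy3 (whole-cell extract) after centring on the array's median, so a value of 0 is the level of the median probe. The arrays sat on 1 slide read in 1 scan, and median Cy3 intensity was between 1619 and 1811. All 285 probes passed the outlier filter, and none (0) was under the background limit of the scanner software. Probes are 50 bp apart and fragments were 500 to 1000 bp long, so neighbouring probes share fragments. With 1 array per strain no difference has a replicate check or a p-value, and the SD beside a mean is the spread across the probes of a gene. Near-duplicate probe pairs elsewhere on the arrays gave the error within an array: for a mean of 5 probes, a difference from wild type had an SD of 0.08 in alp13-deleted cells, and of 0.029 in asf1-1 cells. A change in H3K9ac cannot be told apart from one in the amount of histone H3, of which no array was analysed here.

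In wild-type cells, the members did not share 1 profile. The gene cdc10 (SPBC336.12c, chromosome II, 2760741 to 2763800, minus strand, 1 exon) had a mean of -0.40 ± 0.35 over 61 probes, lower than all but 21.9% of genes. Its highest 250-bp bin, at 1000 to 1250 bp from the start, was only at the array median (0.0024), and its lowest was at 2500 to 2750 bp (-0.99). The gene mcm2 (SPBC4.04c, 1191208 to 1194142, minus strand, 2 exons) had a mean of -0.22 ± 0.39 over 59 probes. It was shaped like a bowl, with 0.36 in the 250 bp before the start, -0.73 at 1250 to 1500 bp and 0.66 at 3000 to 3250 bp, past its end. The last of these bins lies in the 386 bp between mcm2 and the start of sfb3, a gene on the same strand. The gene cdc18 (SPBC14C8.07c, 2215955 to 2217984, minus strand, 1 exon) was flat, with a mean of -0.24 ± 0.13 over 40 probes. The bin before its start, where the CGCG cores lie, was at -0.47 and the first bin of the gene at -0.48. The gene rum1 (SPBC32F12.09, 2799677 to 2801917, plus strand, 1 exon) had a mean of 0.13 ± 0.33 over 45 probes and declined from 0.80 at 500 to 250 bp before the start to -0.73 beyond its end. In the order of gene means, rum1, mcm2, cdc18 and cdc10, neighbours differed by less than the larger of their SDs across probes.

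Set against all genes, the wild-type windows before cdc10 and cdc18 were low. Over all genes the median of the 500 bp upstream was 0.54 and that of the middle window -0.07, where the first, middle and last windows are equal parts of the gene. The upstream window of cdc10 was at -0.48, lower than all but 9.05% of genes, and that of cdc18 at -0.21, lower than all but 16.1%. For mcm2 it was 0.31 and for rum1 0.68, nearer to the median. Most of the mcm2 window lies inside mlo2, and its 3 probes before that gene were at 0.37. Part of the cdc10 window lies inside the neighbouring gene mmp2. The 6 probes in the 300 bp before the start of cdc10, outside mmp2, were at -0.50. The step from upstream to the middle window, -0.49 in the median gene, was not downward in cdc10 (0.24) and cdc18 (0.05), was near that median in rum1 (-0.47) and was larger in mcm2 (-0.91).

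**Figure D1:**
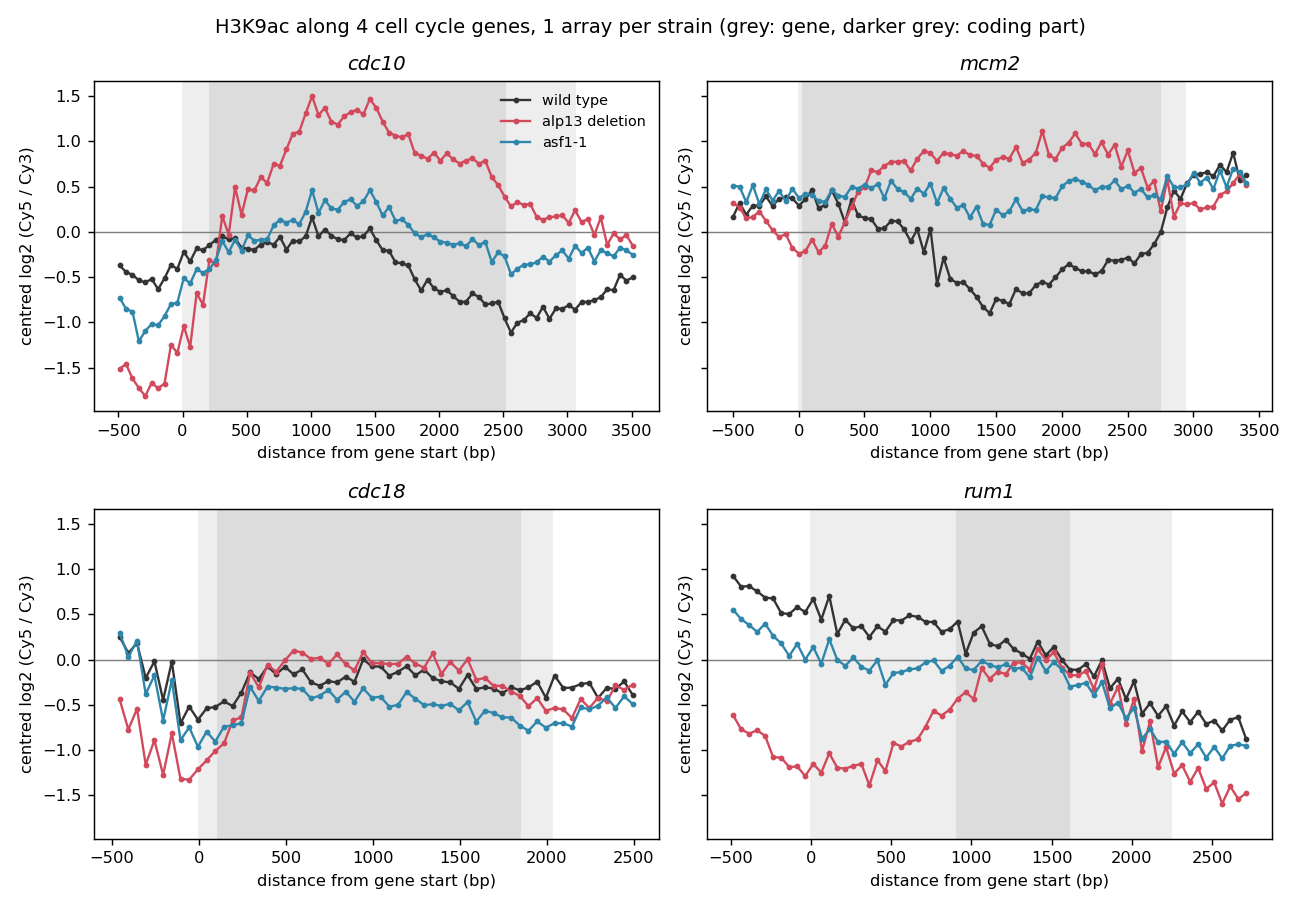
H3K9ac along each gene. Horizontal axis, distance from the annotated gene start in bp; vertical axis, centred log2 ratio of Cy5 to Cy3; each point is 1 probe on 1 array, with wild type in black, the alp13 deletion in red and asf1-1 in blue, light grey the gene and darker grey its coding part. The red line lies above the black one over most of cdc10 and mcm2, runs close to it over cdc18 and lies far below it over the first part of rum1.

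The alp13 deletion was compared with wild type to ask where H3K9ac differs when the Clr6 complex subunit is missing. The gene bodies of cdc10 and mcm2 were higher, that of rum1 was lower, and cdc18 was level with wild type. Over cdc10 wild type had a mean of -0.40, the alp13 deletion one of 0.62 and asf1-1 one of -0.06, so the alp13 deletion stood apart and was 1.02 ± 0.63 above wild type, or 2.03-fold. Over mcm2 the means were -0.22, 0.64 and 0.40 in the same order, with both mutants above wild type and the alp13 deletion 0.86 ± 0.69 higher (1.81-fold). Over cdc18 they were -0.24, -0.22 and -0.52, and the alp13 deletion differed by 0.03 ± 0.21. Over rum1 they were 0.13, -0.59 and -0.20, with both mutants below wild type and the alp13 deletion lower by 1.65-fold (-0.72 ± 0.62), but above wild type (0.46) with centring on intergenic probes.

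At 1.5-fold (0.585 on the log2 scale), 2 of the 4 genes were thus higher in the alp13 deletion, against 15.3% of all genes, and 1 was lower, against 21.7%. The background counts were 136 higher and 192 lower of 886. Left uncentred they were 307 and 71, and with intergenic probes as the zero point 698 and 3. The median change was 0.44 over the 4 genes and -0.06 over all genes. Change moved with gene length: the median was 0.505 in the longest of 4 groups of genes by length (2455 to 11069 bp), which holds cdc10 and mcm2, and 43.2% of that group were higher by 1.5-fold. In the next group (1717 to 2438 bp), which holds cdc18 and rum1, the median was 0.06 and 5.45% were lower by 1.5-fold. Within their length groups cdc10 was above 87.8% of genes, mcm2 above 80.6%, cdc18 above 45.5% and rum1 above 3.64%. The part of length in these values was not tested.

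**Figure D2:**
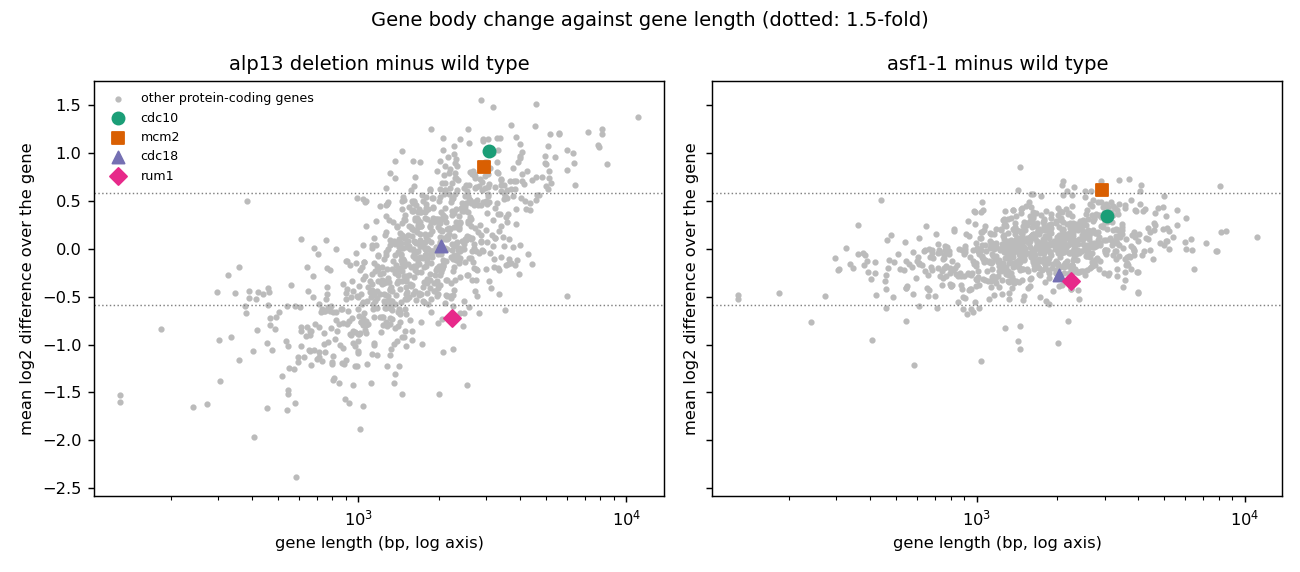
Gene body change against gene length. Horizontal axis, gene length in bp on a log axis; vertical axis, mean log2 difference from wild type over the gene; left, alp13 deletion, right, asf1-1; grey points are the other protein-coding genes and dotted lines mark 1.5-fold. In the left panel cdc10 and mcm2 lie in the upper part of the band of long genes and rum1 lies below most genes of about its own length.

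The means hide a change of sign along cdc10. Before the start, the alp13 deletion was at -1.63 and -1.53 in the pair of 250-bp bins, where wild type was at -0.48 and -0.49. It then climbed to 1.34 at 1250 to 1500 bp, a span of 2.97 between its lowest and highest bin, against 0.99 in wild type. The difference from wild type was -1.15 at its lowest and 1.51 at 2000 to 2250 bp. The lowest values, -1.63 and -1.15, fall in the farther bin, most of which lies inside mmp2, 328 bp from the start. The 6 probes in the 300 bp before the start, outside mmp2, were at -1.58 in the alp13 deletion and -0.50 in wild type. An unbroken run of 56 probes, from 509.5 to 3259.5 bp and so past the end of the gene, was higher by 1.5-fold or more, and a run of 12 probes up to 59.5 bp was lower by as much. On the alp13 deletion array the middle window of cdc10 exceeded its upstream window by 2.72, a larger step than in 99.8% of 874 genes, whose median was 0.56. This step does not depend on the centring. The run of 12 probes and the upstream window also reach into mmp2. The last 471 bp of cdc10 overlap vps52 on the opposite strand, and the 9 probes there (1.11) cannot be assigned to either gene, but the 52 probes outside the overlap gave 1.01. The 500 bp downstream of cdc10, and so the end of the run of 56 probes, also lie inside vps52.

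Over mcm2 the alp13 deletion array turned the bowl of wild type into a dome. Its lowest bin was the first of the gene (-0.18) and its highest was at 2000 to 2250 bp (0.99), and along the 79 probes the array ran opposite to wild type (r = -0.72, a description over probes that share fragments). The difference was 1.55 at 1500 to 1750 bp, and 43 probes in a row, from 601.5 to 2701.5 bp, were higher by 1.5-fold or more. Both flanks differed by less than 1.5-fold: upstream the difference was -0.20 ± 0.22, above 89.5% of genes, and downstream -0.26 ± 0.14. Most of that upstream window lies inside mlo2. The 3 probes between the genes differed by -0.42, -0.41 and -0.55, also less than 1.5-fold. The single intron, 219 bp near the start, was at 0.24 in wild type and 0.19 in the alp13 deletion. The downstream neighbour sfb3, which encodes a coat protein of transport vesicles, was higher by 1.48.

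With centring on the array median, cdc18 was lower by 1.5-fold before its start and not along its body. With centring on intergenic probes this turned round, with the body 1.21 above wild type and the upstream window at 0.41, under 1.5-fold. Upstream, the alp13 deletion was at -0.98 against -0.21 in wild type, a difference of -0.77 ± 0.12, and 9 probes in a row were lower by 1.5-fold or more. The lowest bin of the array was the one that holds the CGCG cores (-1.19). Beyond 250 bp into the gene no bin was further than 0.28 from wild type (-0.28 at 2000 to 2250 bp and 0.24 at 500 to 750 bp), and 0 of the 40 probes inside the gene passed 1.5-fold in either direction.

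In rum1 the lower values spanned the upstream DNA and the leader, and returned beyond the gene's end. The 500 bp upstream differed by -1.64 ± 0.11 in the alp13 deletion and the 500 bp downstream by -0.68 ± 0.11. Most of the downstream window is the DNA before pgm1, a gene on the same strand 438 bp past the end of rum1. Over all genes the upstream window had a median difference of -0.93. The annotated transcript has a 5′ UTR of 912 bp, a coding part of 693 bp and a 3′ UTR of 636 bp. The 18 probes of the 5′ UTR averaged 0.42 on the wild-type array, -1.003 on the alp13 deletion array and -0.05 on that of asf1-1. The difference there was -1.42 ± 0.27 in the alp13 deletion, while the 14 probes of the coding part differed by -0.30 ± 0.26 and those of the 3′ UTR by -0.21 ± 0.17. Taken over the coding part alone, rum1 therefore did not pass 1.5-fold. A run of 29 probes, from -486.5 to 913.5 bp relative to the start, was lower by 1.5-fold or more, and all 45 probes inside the gene were below wild type. The first window differed by -1.52, lower than all but 2.77% of genes, whose median there was -0.45. With centring on intergenic probes, rum1 was still below wild type upstream (-0.46) and in its first window (-0.33), whereas the upstream windows of cdc10 (0.09), cdc18 (0.41) and mcm2 (0.98) turned positive.

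Counted by window, 3 of the 4 genes were lower upstream by 1.5-fold in the alp13 deletion, close to the 72.4% of all genes. In the first window 1 of 4, rum1, was lower, against 40.1%. In the middle window 2 of 4 were higher (cdc10 by 1.39, mcm2 by 1.45), against 30.0% of all genes. In the last window the same 2 genes were higher (1.303 and 0.95), against 24.6%. Downstream 1 of 4 was higher (cdc10 by 0.69), against 15.7%, and 1 of 4 lower (rum1), against 40.0%. The downstream window of cdc10 lies inside vps52, and most of that of rum1 is the DNA before pgm1. The step in change from upstream to the middle window was 2.48 in cdc10, 1.65 in mcm2, 0.91 in cdc18 and 1.19 in rum1, and the median of all genes was 1.05. The middle 50% of genes ran from 0.45 to 1.70, with cdc10 above it and the other members inside it.

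**Figure D3:**
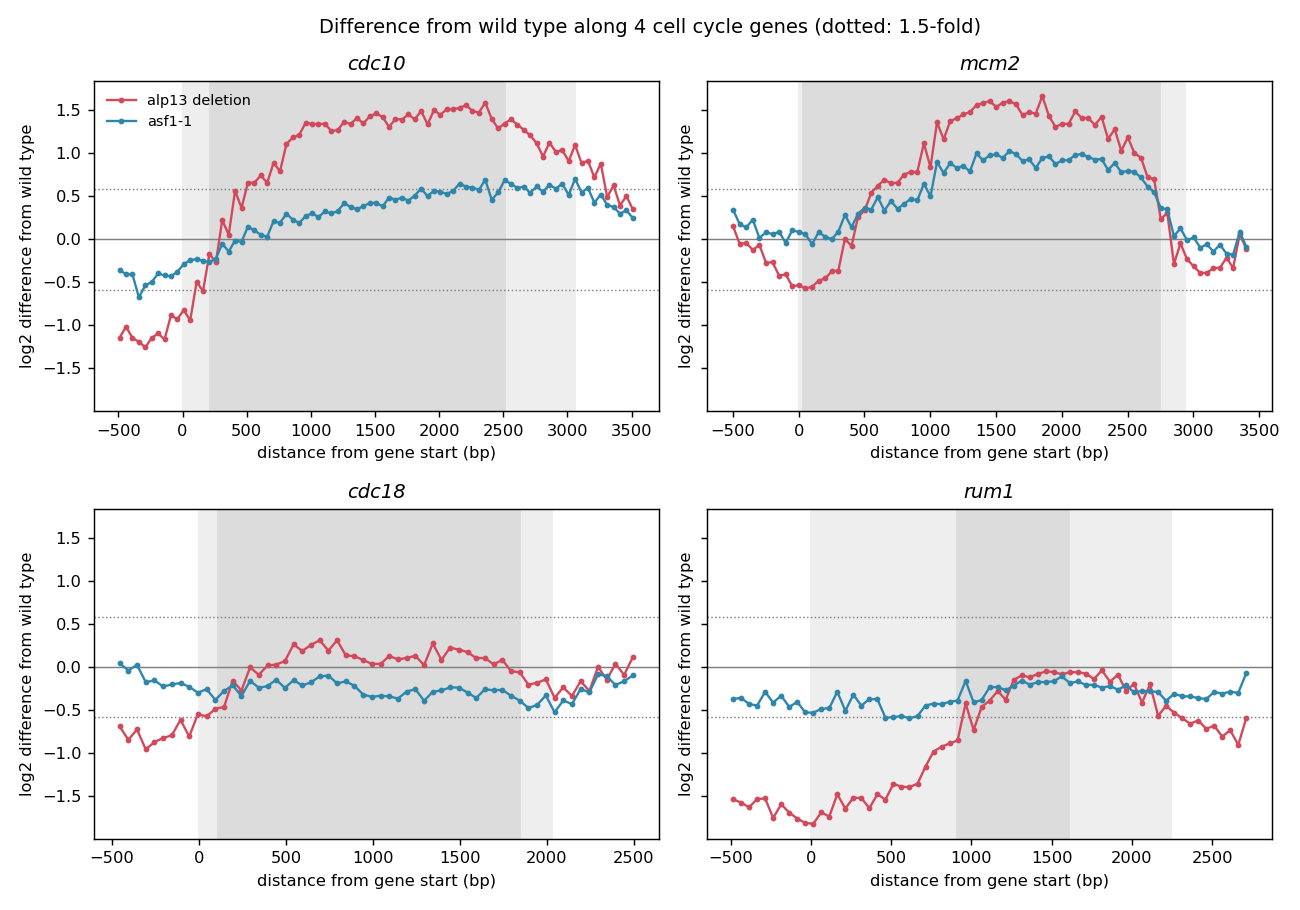
Difference from wild type along each gene. Horizontal axis, distance from the annotated gene start in bp; vertical axis, log2 difference from wild type per probe, with the alp13 deletion in red and asf1-1 in blue; dotted lines mark 1.5-fold, light grey the gene and darker grey its coding part. The red line crosses 0 inside cdc10 and at both ends of mcm2 and stays below 0 over rum1, and the blue line stays below 0 inside cdc18 and rum1.

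The Cy3 channel, which carries whole-cell extract DNA, also differed in places. With both channels centred, Cy5 of cdc10 was 0.69 above wild type in the alp13 deletion and its Cy3 was 0.37 below (-0.37), where the median Cy3 difference of all genes was -0.01 and 4.85% of genes were lower than cdc10. For mcm2 the values were 0.59 in Cy5 and -0.30 in Cy3, for cdc18 0.0022 and -0.06, and for rum1 -0.57 and 0.12. Over the bodies of cdc10, mcm2 and rum1 Cy5 thus made the larger part of the difference in ratio. On Cy5 alone the bodies of cdc10 and mcm2 were still past 1.5-fold, and that of rum1 was just short of it. Upstream of cdc10 the channels differed about equally, with Cy3 at 0.54 and Cy5 at -0.53, under 1.5-fold. In its middle window Cy3 was at -0.60 and Cy5 at 0.82, so the step along cdc10 drew on both channels. Upstream of cdc18 and rum1 Cy5 was at -0.76 and -1.35, and Cy3 at -0.02 and 0.26. The cause of the Cy3 differences was not tested.

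The comparison of asf1-1 with wild type asked whether the chaperone allele has an effect on H3K9ac over these genes. Only mcm2 passed 1.5-fold over its body, and it was higher. Its mean of 0.40 was 0.62 ± 0.34 above wild type (1.54-fold), above 98.9% of all genes and 97.3% of the longest group. One member higher (1 of 4) compares with 1.69% of all genes, and none lower (0 of 4) with 2.14%. These background counts were 15 higher and 19 lower of 886. Left uncentred they were 49 and 10, with intergenic probes as the zero point 222 and 3, after normexp background correction 53 and 37, and on Cy5 alone 3 and 10. On Cy5 alone mcm2 was at 0.44 and did not pass. The others were at 0.34 ± 0.28 (cdc10), -0.27 ± 0.09 (cdc18) and -0.33 ± 0.14 (rum1), and the median was 0.03 over the 4 genes and 0.0017 over all genes.

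Along mcm2 the asf1-1 array was nearly flat, with all bins between 0.18 and 0.60 where wild type ran from -0.73 to 0.68. The difference was 0.97 at 1500 to 1750 bp, and 33 probes in a row, from 1051.5 to 2651.5 bp, were higher by 1.5-fold or more. Upstream it was 0.12 ± 0.11, at the positive end of all genes (above 93.7%), whose median was -0.28. Most of that window lies inside mlo2. In the middle window mcm2 (0.89) was the 1 of 4 genes past 1.5-fold, against 5.49% of all genes. Along cdc10 the difference ran from -0.48 in the far upstream bin, mostly inside mmp2, to 0.62 at 2500 to 2750 bp. Its last window (0.59 ± 0.06) passed 1.5-fold narrowly, while the whole gene did not. In that window 2 of 4 genes passed, with mcm2 at 0.71, against 4.73% of all genes. On Cy5 alone the last window was at 0.57 in cdc10 and 0.48 in mcm2, both under 1.5-fold. In cdc10 it includes the 9 probes that overlap vps52 (0.59), which cannot be assigned to either gene. The step from the upstream window to the middle one of cdc10 on the asf1-1 array was 1.12, larger than in 97.5% of genes.

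Both cdc18 and rum1 lay below wild type over their whole bodies in asf1-1. All 40 probes inside cdc18 and all 45 inside rum1 were lower, although 0 of the first and 2 of the second were lower by 1.5-fold. In cdc18 the difference was -0.06 in the bin 500 to 250 bp upstream and -0.39 at 1750 to 2000 bp, and its step in change from upstream to the middle window was -0.12, where the median of all genes was 0.39 and 7.21% of genes were lower. In rum1 the difference was -0.47 ± 0.09 in the 5′ UTR and -0.23 ± 0.10 in the coding part, and the profile followed that of wild type (r = 0.97 over 65 probes). With centring on intergenic probes both genes turned slightly positive (0.14 and 0.08), and without centring both were below wild type (-0.11 and -0.17).

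**Figure D4:**
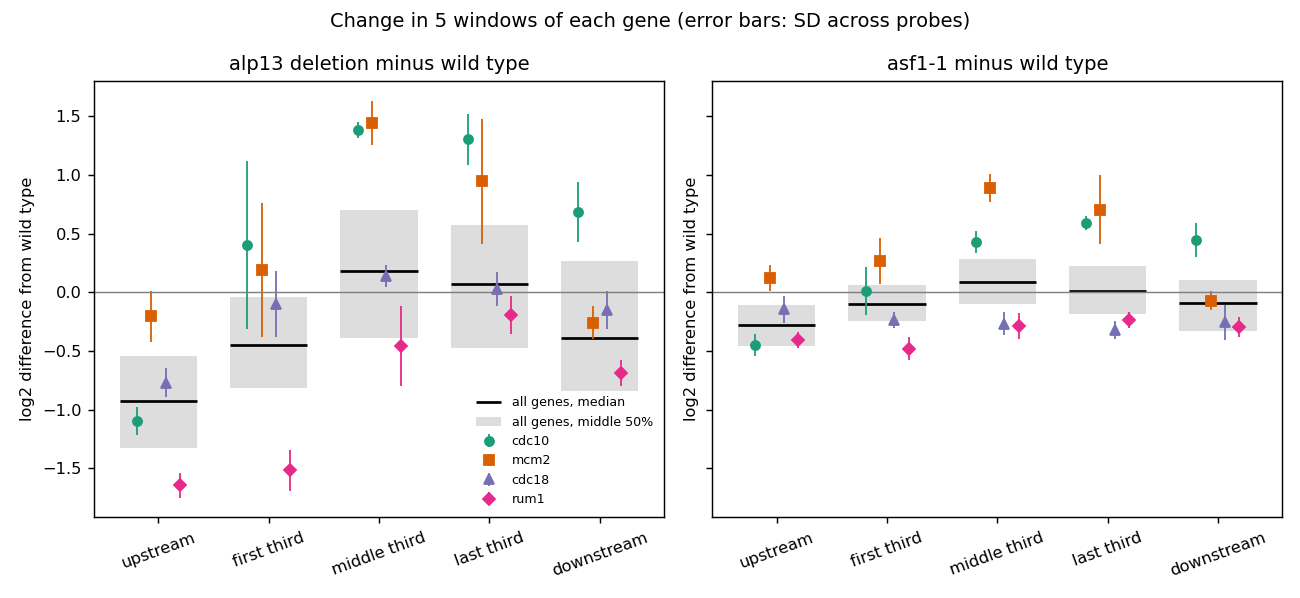
Change in 5 windows of each gene. Horizontal axis, the 500 bp upstream, the first, middle and last windows of the gene and the 500 bp downstream; vertical axis, mean log2 difference from wild type; left, alp13 deletion, right, asf1-1; coloured points are the 4 genes with the SD across probes as error bars, the grey bars the middle 50% of all genes and the black lines their medians. In the middle window cdc10 (1.39) and mcm2 (1.45) lie above the grey bar in the alp13 deletion, and rum1 lies below it upstream and in the first window.

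Set directly against each other, without the wild-type array, the mutants differed most in gene body mean over cdc10. There asf1-1 was lower than the alp13 deletion by 1.60-fold (-0.68 ± 0.40), and 1 of 4 genes lower compares with 8.80% of all genes, and 0 of 4 higher with 16.1%. On Cy5 alone the difference was -0.36, under 1.5-fold. The differences were -0.24 ± 0.37 for mcm2, -0.30 ± 0.19 for cdc18 and 0.39 ± 0.51 for rum1. Upstream 3 of 4 genes were higher in asf1-1 by 1.5-fold, against 56.4% of all genes: rum1 by 1.24, cdc10 by 0.65 and cdc18 by 0.62. In rum1 the first window of asf1-1 was 1.04 above the alp13 deletion and the last window -0.04 from it. The upstream and first windows of rum1 thus differed more than any window of cdc10, whose largest difference was -0.96 in the middle.

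The neighbours of the 4 genes set these values in place. Of 6 protein-coding neighbours within 500 bp, sfb3 beside mcm2 was higher in the alp13 deletion by 1.48 and mmp2, upstream of cdc10, lower (-0.85). The others were vps52 (0.41), mlo2 (0.23), arc1 (0.02) and pgm1 (-0.0032), and in asf1-1 all 6 lay between -0.31 and 0.49. The annotation also places 6 long non-coding RNAs on the opposite strand that overlap cdc10, mcm2 and cdc18, and immunoprecipitated DNA carries no strand, so their probes count for both.

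By profile, the gene most like cdc10 among 853 genes was rep2, which encodes another subunit of MBF. The measure was the Euclidean distance over 15 values, 5 windows on 3 arrays, and it was 0.92 for rep2 and 1.34 for css1, with a median of 3.45 over all genes. For mcm2 the nearest was trm734 (0.93). For cdc18 they were atp3 (0.90), which encodes a subunit of the mitochondrial ATP synthase, and rec6 (0.98), a meiotic recombination gene, and for rum1 mep33 (1.08) and pvg3 (1.15). Among the members themselves the shortest distance was 1.99, between cdc18 and rum1, and the longest 3.93, between mcm2 and rum1. Between cdc10 and cdc18, a target of MBF, the distance was 2.13. Whether a short distance goes with a shared function was not tested.

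A wider list of 95 cell cycle and replication genes had 25 with probes, the 4 members included. In the alp13 deletion 7 were higher and 2 lower by 1.5-fold, which is 28% and 8% of the list, and the median was 0.10. Over all genes the shares were 15.3% and 21.7% and the median -0.06. The median wild-type level of the list was 0.04 and that of all genes 0.08, and its median length 1888 bp against 1715 bp. Besides cdc10 and mcm2, those higher were orc4 (1.16 ± 0.41), a subunit of the origin recognition complex, cdc6 (0.75), the catalytic subunit of DNA polymerase delta in this yeast, rep2 (0.75), psm1 (0.72), a cohesin subunit, and cdc14 (0.70), of the septation network. Besides rum1, orc6 (-0.88 ± 0.51), of the same origin recognition complex as orc4, was lower. The genes at the median of the list were yox1 (0.10), a repressor of MBF targets, and rfc5 (0.16), of the clamp loader.

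In asf1-1 the same list had 1 gene higher, mcm2, and 0 lower, or 4% and 0%, with a median of 0.16, where all genes had 1.69% and 2.14% and a median of 0.0017. Nearest to that median were rep2 (0.16) and orc2 (0.16). The change of orc4 was 0.43 ± 0.17 and that of orc6 -0.23 ± 0.20. Without the 4 members, the median was 0.10 in the alp13 deletion and 0.16 in asf1-1 over 21 genes. Of those, 5 were higher (23.8%) and 1 lower (4.76%) in the alp13 deletion, against the same 15.3% and 21.7% of all genes. In asf1-1 0 of them passed, against 1.69% higher and 2.14% lower of all genes.

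**Figure D5:**
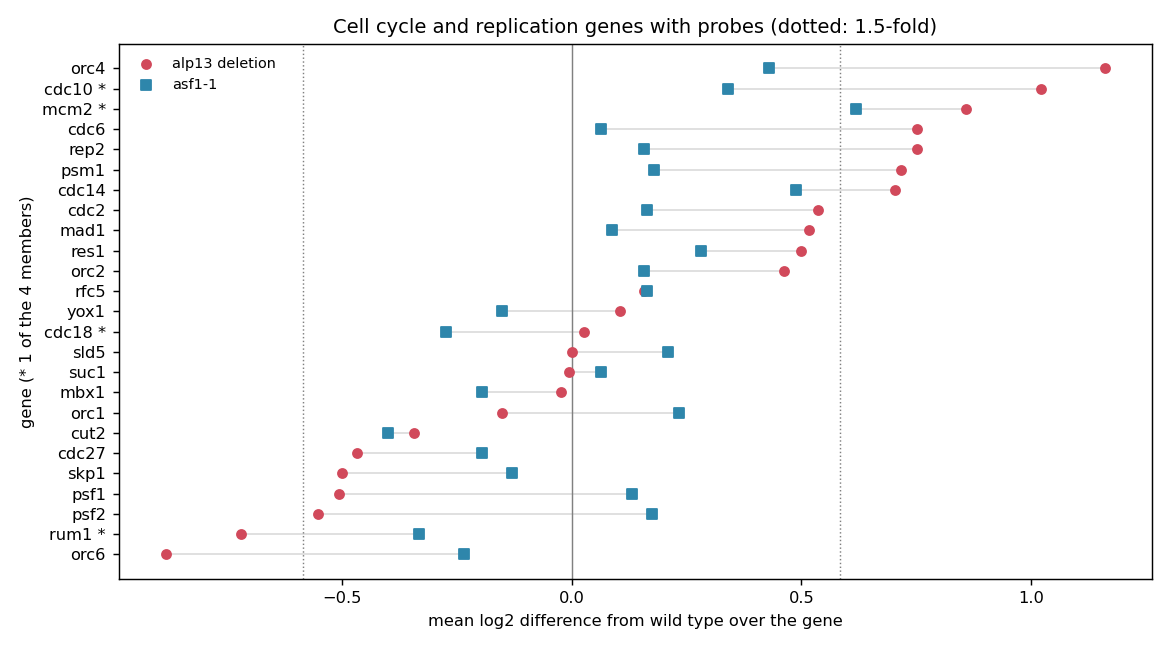
Cell cycle and replication genes with probes. Horizontal axis, mean log2 difference from wild type over the gene, with the alp13 deletion as red circles and asf1-1 as blue squares; vertical axis, the 25 genes in the order of the alp13 deletion, the 4 members marked by a star; dotted lines mark 1.5-fold. The gene orc4 (1.16) is at the top and orc6 (-0.88) at the bottom, and in asf1-1 mcm2 alone passes the right dotted line.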

How the data were processed

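H3K9ac immunoprecipitate (Cy5) and whole-cell extract DNA (Cy3) were hybridised on 1 two-colour 60-mer array per strain, per the labels. Per the file headers, the scanner software was version 10.7.3.1 of Agilent Feature Extraction, which subtracted background, detrended each array and applied a linear dye normalisation to give the deposited processed intensity, and the deposited log10 ratio is Cy5 over Cy3. From the processed intensities log2 ratios were computed and centred on each array's median, without loess, since most probes carry signal; 43912 probes without outlier flags were kept. Array position was taken as ASM294v3 position plus 900 bp left of array base 1616911 and plus 1800 bp right of it. For the coordinates of probes, no genome build is stated in the labels or headers. Within 10 kb of each gene, GC content and Cy3 signal matched best at that offset (r from 0.508 to 0.63, next best 0.281 to 0.444).

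A gene's value is the mean over probes whose middle lies inside it; calls need 1.5-fold. The gene calculation and the offset search were tested on simulated data. Named genes were the 4 members, genes within 500 bp, the 2 nearest by profile, and listed genes past 1.5-fold or nearest the list median. One gene that this rule names is not reported here. Members and lists were chosen with earlier results of these data known. The deposited value table (scores of unknown scale, centring and direction; the authors' column medians were 0.114, 0.0849 and -0.0204 for wild type, the alp13 deletion and asf1-1) did not follow its arrays (r of 0.225, 0.528 and -0.58) and was not used. That places the assignment of arrays to strains on the labels alone. Python 3.11.15, numpy 2.4.6, pandas 2.3.3 and limma 3.58.1 (R 4.3.3, normexp with an offset of 50) were used.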

Additional observations from a re-analysis of the deposited data

How the results depend on the processing

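With 1 array per strain, the number of arrays limits every statement, and no array could be left out. No paired analysis was possible because each strain has 1 array and no test was made. Of 120 gene body values recomputed for the 4 genes under 10 alternatives, 104 stayed within the spread across probes, 15 moved further and 1 reversed. That spread runs along the gene and is not an error, so a value within it could still fall under 1.5-fold. Only changes past 1.5-fold could count as reversed. Smaller ones also changed sign with intergenic centring: cdc18 and rum1 in asf1-1, and rum1 between the mutants. So did cdc18 in the alp13 deletion with normexp and with arrays at 1 spread. Centring on the 10080 intergenic probes added 1.18 to every change in the alp13 deletion and 0.41 in asf1-1. It gave 2.204 for cdc10, 2.04 for mcm2, 1.21 for cdc18 and 0.46 for rum1, which reversed, in the alp13 deletion, and 0.75, 1.03, 0.14 and 0.082 in asf1-1. For asf1-1 minus the alp13 deletion it gave -1.45, -1.01, -1.07 and -0.38. Without centring, cdc18 was at 0.44 in the alp13 deletion, -0.11 in asf1-1 and -0.54 between the mutants, and rum1 at -0.17 in asf1-1. The rum1 change in the alp13 deletion was under 1.5-fold without centring (-0.31), on Cy5 alone (-0.57), with the median of probes (-0.45) and over the coding part (-0.30). That of cdc18 was -0.0064 with normexp and with arrays at 1 spread. Shifting probes by 100 bp ended no call. Leaving out probes near background could change no value, because none (0) of the 285 probes was near it. Its values are all among the 104. Genes past 1.5-fold in the alp13 deletion, 328 in all, became 701 with intergenic centring, 184 on Cy5 alone and 105 at 2-fold. In asf1-1, 34 became 59 without centring, 225 with intergenic centring, 90 with normexp, 13 on Cy5 alone and 3 at 2-fold. The value table was not run as an alternative, because its columns did not follow their arrays. Normexp used median spot signals.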
